A study of Mus musculus with 12 samples.

Results

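Mitosis and spindle genes were followed in liver RNA of mice that lack Abcb4, which moves phospholipid out of hepatocytes into the bile. The set holds 40 genes of chromosome segregation, spindle assembly and mitotic exit, named by symbol, and every gene probe of the array that the scanner files name after one of them was taken. All 40 were measured, by 68 probes, out of 27576 genes tested. Cdc2a is the older name of Cdk1, and the older name is used below because the files use it.

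The knockout livers came from Abcb4(-/-) mice that ate either CA, which is cholic acid, or UDCA, which is ursodeoxycholic acid, over 9 weeks, and each was set against a liver of an Abcb4(+/+) mouse. Mice without Abcb4 develop a bile duct disease that serves as a model of sclerosing cholangitis, and per the series' design text CA was fed to raise its activity and UDCA to lower it. For each diet, 5 knockout livers, not pooled, were hybridised on 6 Agilent 4x44K arrays, each with a wild-type liver in the other dye. On arrays 1 to 3 of each diet the knockout was in Cy5 and on arrays 4 to 6 in Cy3, and 1 of the Cy3 arrays repeats, in the opposite dye, a liver already used, without the labels saying which. The p-values treat the 6 arrays of a diet as separate samples. The sources used here give no strain, sex, age, dose or wild-type diet. Knockout liver without a bile acid diet was not analysed here, and the effects of the missing gene and of the fed bile acid cannot be told apart.

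Mitosis begins when cyclin B bound to Cdk1 becomes active, and polo and aurora kinases then build the spindle. The checkpoint at the centromeres holds the anaphase-promoting complex back until all chromosomes are attached, after which that complex, switched on by Cdc20, has cyclins and securin destroyed. Most of these genes are transcribed in G2 and mitosis and are shut off in resting cells, and hepatocytes of an uninjured adult liver seldom divide, so that the RNAs mark cycling cells of whatever type. In RNA of whole liver, more cycling cells and more RNA per cycling cell cannot be told apart.

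Over the 12 arrays the median spot intensity was 250.2 to 1296 in green and 59.2 to 158.2 in red. The share of gene spots well above background was 41.6% to 68.4% in green and 31.6% to 62.4% in red. Both Abcb4 probes were lower in the knockout, at -0.73 and -2.73 with CA and at -1.28 and -1.77 with UDCA (log2), below 0 on 10 and on 12 of the 12 arrays. CA arrays 3 and 4 stand apart: the 5 pancreas markers had a median log2 ratio of -3.56 and -3.23 there, with wild type the brighter channel, while the medians lay between -1.15 and -0.09 on the other CA arrays and between -0.30 and 1.05 on the UDCA arrays. Counts below are also given without these 2 arrays. The number of arrays limits the precision.

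Nearly all mitosis and spindle genes were higher in CA-fed knockout liver than in wild type, and most were higher in UDCA-fed knockout liver. With CA, 38 of 40 were called higher and 0 lower. Over all genes tested, 21.2% were called higher and 13.1% lower in that comparison. With UDCA, 29 of 40 were higher and 0 lower, where 8.87% of all genes were higher and 4.61% lower. A gene was called at an adjusted p under 0.05 in a limma fit, with Benjamini-Hochberg adjustment over all tested probes. Without CA arrays 3 and 4 the counts were 37 with CA and 27 with UDCA, of 39 members tested. Birc5 then had too few values for the fit.

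The median member stood at 1.33 with CA and 0.98 with UDCA, where the median over all genes was 0.00 in both comparisons. Signed values here and below are log2 of knockout divided by wild type, each array carrying both, and ± gives the standard error from the fit. Called higher with a fitted ratio of at least 2-fold were 28 members with CA and 18 with UDCA, against 7.24% and 2.14% of all genes. The calls are against no change, and a 2-fold threshold was not tested. The same 29 genes that rose with UDCA also rose with CA, 9 rose with CA and were not called with UDCA, and 2 (Ccnf and Cdc25c) were called in neither. Above 0 on all 6 CA arrays were 35 members (17.6% of all genes) and on all 6 UDCA arrays 28 (11.0% of all genes).

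**Figure D1:**
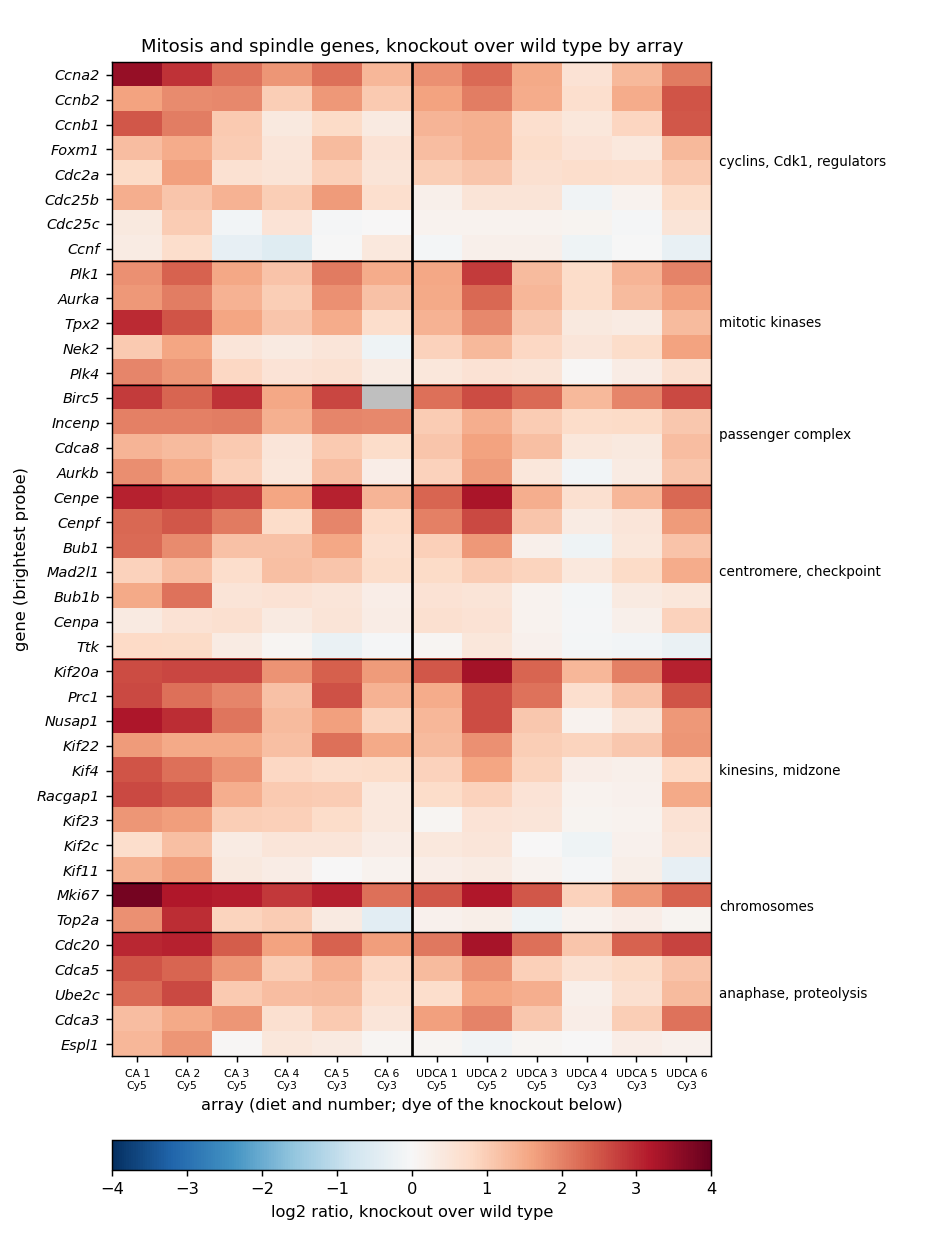
Heat map of the log2 ratio of knockout over wild type for each of the 40 genes (rows, grouped by role) on each of the 12 arrays (columns; CA left, UDCA right; the dye of the knockout stands under the array), with a missing value in grey. CA arrays 1 and 2 and UDCA array 2 are the darkest columns, UDCA array 4 the palest, and Ccnf, Cdc25c and Ttk stay near 0 on most arrays.

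Among the cyclins, Cdk1 and their regulators, 6 of 8 rose with CA and 5 of 8 with UDCA. Ccna2, cyclin A2, which pairs with Cdk2 and Cdk1 from S phase to early mitosis, had the largest mean ratio over both diets (probe A_51_P481920; mm7, chromosome 3, 36375837 to 36375896). It read 3.48, 2.89, 2.17, 1.76, 2.19 and 1.33 on CA arrays 1 to 6 and 1.82, 2.28, 1.52, 0.58, 1.31 and 2.08 on UDCA arrays 1 to 6. All 12 values lay above 0, lowest on UDCA array 4, and the diets overlapped. The fit gave 2.30 ± 0.19 with CA (adjusted p = 1.31e-07) and 1.60 ± 0.19 with UDCA (adjusted p = 3.10e-05).

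Ccnb2, the second mitotic B-type cyclin, was at 1.53 ± 0.17 with CA and 1.64 ± 0.17 with UDCA, and Ccnb1, the main cyclin of mitotic entry, at 1.19 ± 0.25 and 1.21 ± 0.25. The fitted CA ratio of Ccnb1 was called (adjusted p = 0.00154). Wild-type Ccnb1 was well above background on 0 of 6 CA arrays, and set against the lowest measurable signal CA-fed knockout liver was an estimated 2.20-fold higher. Such an estimate takes, on each array, the higher of the probe's own wild-type signal and the lowest signal of any probe well above background. It comes without an interval and is not a lower confidence limit of the ratio. The kinase Cdc2a itself rose by 0.84 ± 0.12 with CA and 0.86 ± 0.12 with UDCA. Foxm1, a transcription factor that drives genes of G2 and mitosis, was at 1.0 ± 0.13 and 0.94 ± 0.13.

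The Cdc25 phosphatases remove the inhibitory phosphates from Cdk1. Cdc25b rose with CA, and its values follow with the diet difference below. Cdc25c (probe A_51_P279575; mm7, chromosome 18, 35119875 to 35120741) read 0.40, 1.02, -0.10, 0.54, -0.05 and 0.03 on CA arrays 1 to 6 and 0.15, 0.13, 0.15, 0.11, -0.05 and 0.50 on UDCA arrays 1 to 6. Its fitted ratios of 0.31 ± 0.13 and 0.17 ± 0.13 were not called (adjusted p = 0.0782 and 0.540), and its wild-type channel was well above background on 0 of 12 arrays. Without CA array 3 it was called, at 0.41.

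Ccnf, cyclin F, is the substrate receptor of a ubiquitin ligase and does not bind a Cdk. Its probe A_51_P328333 (mm7, chromosome 17, 22404677 to 22404736) read 0.34, 0.71, -0.32, -0.47, -0.02 and 0.42 on CA arrays 1 to 6 and -0.07, 0.21, 0.21, -0.18, -0.03 and -0.30 on UDCA arrays 1 to 6. The values straddled 0 in both diets, and the fit gave 0.11 ± 0.12 (adjusted p = 0.582) and -0.03 ± 0.12 (adjusted p = 0.947). Without CA arrays 3 and 4, which gave its lowest values, Ccnf was at 0.36 with CA and was called.

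All 5 mitotic kinases and their activator genes rose with CA and 4 rose with UDCA. Plk1, the polo-like kinase of mitotic entry, centrosome maturation and cytokinesis, led them (probe A_51_P344566; mm7, chromosome 7, 118093971 to 118094030). It read 1.84, 2.35, 1.55, 1.15, 2.07 and 1.48 on CA arrays 1 to 6 and 1.55, 2.81, 1.28, 0.73, 1.37 and 1.98 on UDCA arrays 1 to 6. Every value was above 0, the highest and the lowest were both on UDCA arrays, and the fit gave 1.74 ± 0.19 (adjusted p = 2.83e-06) and 1.62 ± 0.19 (adjusted p = 2.85e-05).

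Aurka, the aurora kinase of the spindle poles, was at 1.53 ± 0.15 with CA and 1.47 ± 0.15 with UDCA, and Tpx2, which carries Aurka to spindle microtubules and activates it, at 1.73 ± 0.18 and 1.06 ± 0.18. Nek2, a kinase of centrosome separation, was at 0.63 ± 0.17 and 0.98 ± 0.17, so that the UDCA estimate was the higher one. Plk4, which starts centriole duplication, was at 1.0 ± 0.14 with CA. With UDCA it was at 0.42 ± 0.14 and not called (adjusted p = 0.0740), and there its wild-type channel was well above background on 0 of 6 arrays.

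The chromosomal passenger complex joins the kinase Aurkb to the scaffold Incenp and the targeting subunits Birc5 and Cdca8, and corrects faulty attachments at centromeres before it moves to the midzone. All 4 subunits rose with both diets. Birc5, survivin (probe A_51_P230103; mm7, chromosome 11, 117964690 to 117964749), read 2.80, 2.34, 2.90, 1.54 and 2.67 on CA arrays 1 to 5, with no value on CA array 6, and 2.19, 2.62, 2.28, 1.29, 1.96 and 2.64 on UDCA arrays 1 to 6. The arrays of the diets overlapped over nearly their whole range. The fit, which had 5 CA values for this probe, gave 2.40 ± 0.18 (adjusted p = 9.44e-08) and 2.16 ± 0.16 (adjusted p = 6.55e-07).

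Cdca8, borealin, was at 0.98 ± 0.11 with CA and 1.0 ± 0.11 with UDCA. Aurkb was at 1.05 ± 0.18 with CA (adjusted p = 0.000258) and 0.73 ± 0.18 with UDCA (adjusted p = 0.0135). Wild-type Aurkb was well above background on 0 of 12 arrays. Set against the lowest measurable signal, the estimates were 2.06-fold with CA and 1.56-fold with UDCA.

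At the centromere and in the spindle checkpoint, 7 of 7 genes rose with CA and 5 of 7 with UDCA. Cenpe, the kinesin that draws chromosomes to the spindle equator from their kinetochores, led them (probe A_51_P164014; mm7, chromosome 3, 135067767 to 135067826). It read 3.09, 2.95, 2.79, 1.59, 3.08 and 1.36 on CA arrays 1 to 6 and 2.33, 3.25, 1.46, 0.64, 1.33 and 2.29 on UDCA arrays 1 to 6. The top value was on UDCA array 2 and the bottom one on UDCA array 4, and the fit gave 2.48 ± 0.24 (adjusted p = 7.15e-07) and 1.88 ± 0.24 (adjusted p = 5.71e-05).

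Cenpf, a large kinetochore protein made in G2, was at 1.73 ± 0.20 with CA and 1.38 ± 0.20 with UDCA. Cenpa, the histone H3 variant that marks centromeres, changed least of the genes called with UDCA, at 0.46 ± 0.11 and 0.40 ± 0.11. The checkpoint kinase Bub1 was at 1.45 ± 0.19 with CA (adjusted p = 2.15e-05) and 0.72 ± 0.19 with UDCA (adjusted p = 0.0235). Its wild-type channel was well above background on 0 of 12 arrays. Set against the lowest measurable signal, the estimates were 2.63-fold with CA and 1.42-fold with UDCA. Mad2l1, which inhibits Cdc20 at unattached kinetochores, was at 0.98 ± 0.12 and 0.89 ± 0.12. Bub1b, its partner in that inhibitory complex, was at 0.93 ± 0.17 with CA and was not called with UDCA (0.33 ± 0.17, adjusted p = 0.289). Ttk, the kinase at the top of the checkpoint, was at 0.28 ± 0.09 with CA, the smallest change called. With UDCA it was at 0.04 ± 0.09 (adjusted p = 0.896), and wild type was well above background on 0 of 12 arrays.

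Of the kinesins and proteins of the spindle midzone, 9 of 9 rose with CA and 6 of 9 with UDCA. Kif20a, the midzone kinesin that brings the passenger complex and Plk1 into place for cytokinesis, led them (probe A_51_P133138; mm7, chromosome 18, 35008089 to 35008148). It read 2.61, 2.67, 2.68, 1.80, 2.38 and 1.69 on CA arrays 1 to 6 and 2.48, 3.32, 2.32, 1.33, 2.00 and 3.07 on UDCA arrays 1 to 6. Its 2 highest values were on UDCA arrays, the fit gave 2.31 ± 0.18 (adjusted p = 5.99e-08) and 2.42 ± 0.18 (adjusted p = 2.66e-07), and a second probe gave 2.00 and 2.13.

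Prc1, which bundles antiparallel microtubules in the midzone, was at 1.99 ± 0.22 with CA and 1.77 ± 0.22 with UDCA. Nusap1, a microtubule-binding protein of the spindle near chromosomes, was at 2.02 ± 0.22 and 1.23 ± 0.22. The chromokinesins Kif22 and Kif4, which work on chromosome arms and in the midzone, were at 1.61 ± 0.14 and 1.46 ± 0.13 with CA and at 1.30 ± 0.14 and 0.78 ± 0.13 with UDCA. Racgap1, the partner of Kif23 in the centralspindlin complex, was at 1.51 ± 0.21 with CA and at 0.67 ± 0.21 with UDCA (adjusted p = 0.0497). Kif11, the motor that pushes the spindle poles apart, was at 0.65 ± 0.15 with CA and 0.10 ± 0.15 with UDCA (adjusted p = 0.793). Kif2c, which takes microtubules apart at centromeres, was at 0.58 ± 0.11 with CA (adjusted p = 0.000697). Its wild-type channel was well above background on 0 of 6 CA arrays, and the CA estimate against the lowest measurable signal was 1.49-fold. With UDCA Kif2c was at 0.24 ± 0.11 (adjusted p = 0.244).

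Mki67 had the largest ratio of all members with CA. It encodes Ki-67, the protein that coats mitotic chromosomes and is the usual marker of proliferation (probe A_51_P253803; mm7, chromosome 7, 132094802 to 132094861). It read 3.84, 3.20, 3.14, 2.83, 3.11 and 2.20 on CA arrays 1 to 6 and 2.49, 3.20, 2.48, 0.92, 1.74 and 2.35 on UDCA arrays 1 to 6. The diets overlapped through UDCA arrays 1, 2, 3 and 6, all above CA array 6. The fit gave 3.05 ± 0.17 (8.30-fold, adjusted p = 2.53e-09) and 2.20 ± 0.17 (4.58-fold, adjusted p = 4.60e-07), and the second Mki67 probe was at 1.63 and 0.69, called in both. Top2a, the topoisomerase that untangles sister chromatids, was at 1.10 ± 0.25 with CA, where CA arrays 1 to 6 read 1.82, 2.94, 0.88, 1.03, 0.37 and -0.43. With UDCA it was at 0.12 ± 0.25 (adjusted p = 0.871), with knockout well above background on 2 of 6 arrays.

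All 5 genes of anaphase and mitotic proteolysis rose with CA and 4 rose with UDCA. Cdc20, the activator of the anaphase-promoting complex (probe A_51_P361022; mm7, chromosome 4, 117809370 to 117809429), read 3.00, 3.07, 2.41, 1.61, 2.36 and 1.66 on CA arrays 1 to 6 and 2.10, 3.29, 2.21, 1.11, 2.37 and 2.71 on UDCA arrays 1 to 6. It was above 1 on every array, and the fit gave 2.35 ± 0.20 (adjusted p = 1.48e-07) and 2.30 ± 0.20 (adjusted p = 1.13e-06). Cdca5, sororin, which protects cohesin until anaphase, was at 1.63 ± 0.14 with CA and 1.09 ± 0.14 with UDCA. Ube2c, the ubiquitin-conjugating enzyme of the anaphase-promoting complex, was at 1.52 ± 0.19 and 0.97 ± 0.19. Cdca3, a trigger of mitotic entry through the loss of Wee1, was at 1.12 ± 0.19 and 1.36 ± 0.19. Espl1, the separase that cuts cohesin, was at 0.67 ± 0.17 with CA. With UDCA it was at 0.08 ± 0.17 (adjusted p = 0.873), and neither channel was well above background on any UDCA array.

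The members were dim in wild-type liver. Knockout liver had the probe well above background on all 6 arrays for 35 members with CA and for 29 with UDCA, against 12 and 9 members in the wild-type channel of the same arrays. More knockout than wild-type arrays held a measurable signal for 28 members with CA and 30 with UDCA, and fewer for 0 in both. The same counts were not made over all genes, so whether the members differ from other genes in this was not tested. Of the 11 members not called with UDCA, 8 had the wild-type probe well above background on 0 of 6 UDCA arrays. In these 8 the knockout probe was well above background on 0 (Espl1) to 4 (Kif23) of 6 UDCA arrays. Aurkb and Bub1 also had wild type on 0 of 6 UDCA arrays and were called. The constant added to both channels draws the ratio of a dim probe towards 0, and its part in the missing calls was not tested. No member was saturated. The 17 members whose wild-type signal alone would have passed a filter on dim probes (5 of 6 arrays in either diet) were all called higher with CA and with UDCA. The share called higher among all genes passing that way was not computed, so this count has nothing to be set against. In a fit limited to probes that passed in knockout or wild type, 38.1% of genes were higher with CA and 17.4% with UDCA. Of the 38 members in that fit, 37 were higher with CA and 29 with UDCA. However, 21 of the 38 passed through the knockout signal alone, so that passing was tied to being high there. These counts are therefore no separate support.

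**Figure D2:**
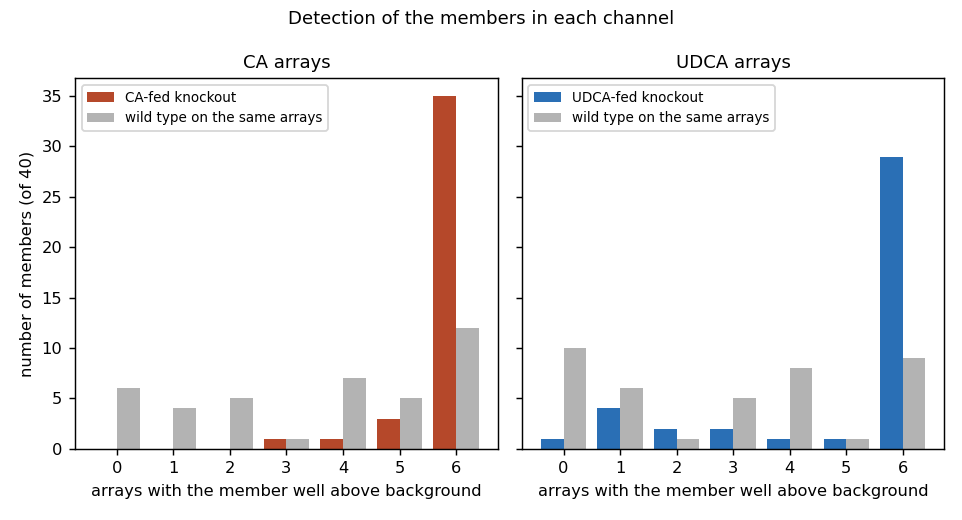
Number of members (y axis, of 40) by the number of arrays on which their probe was well above background (x axis, 0 to 6), in knockout liver (coloured bars) and in wild-type liver on the same arrays (grey bars), for the CA arrays on the left and the UDCA arrays on the right. The knockout bars stand mostly at 6 arrays (35 members with CA and 29 with UDCA), while the wild-type bars are spread from 0 to 6.

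Of the members, 21 had more than 1 probe, and the results above are those of the brightest. Of the 28 other probes, 12 were called higher with CA and 7 with UDCA, and 0 lower. Of those not called, 10 of 16 with CA and 13 of 21 with UDCA were not well above background in either channel on any array of that diet. Probes of 1 gene thus disagreed: for Cdca8, beside the probe at 0.98 and 1.0, one was at 0.47 and 0.20 and the other at 0.04 and -0.21. Beside the Cenpe probe at 2.48 and 1.88, one was at 0.72 and 0.19 and the other at 0.12 and 0.02. Beside the Top2a probe at 1.10 and 0.12, one was at -0.08 and -0.05 and the other at 0.20 and 0.16. The mean of all probes of each gene gave a median member of 1.03 with CA and 0.72 with UDCA.

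The median of the members varied from array to array. It was 1.83, 1.95, 1.28, 0.97, 1.24 and 0.66 on CA arrays 1 to 6, and 1.0, 1.59, 0.89, 0.36, 0.49 and 1.27 on UDCA arrays 1 to 6, where the median of all genes lay between -0.01 and 0.05. CA array 6 gave the lowest CA value of 22 members and CA array 4 that of 12, while arrays 1 and 2 gave the highest of 16 each. UDCA array 4 gave the lowest UDCA value of 28 members, and UDCA arrays 2 and 6 the highest of 24 and 12. On UDCA array 4, 9 members were at or below 0.

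Dye orientation moved with this spread. The dye term of the fit was above 0, that is, ratios were higher on arrays with the knockout in Cy5, for 39 of 40 members. Its median over the members was 0.56, where the median over all genes was -0.03, and it was called for 7 members. Of all genes, 2.79% were called with that sign. The lowest dye terms were those of Mad2l1 (-0.04) and Kif22 (0.02), and among the highest were those of Nusap1 (1.19), Cenpf (1.11) and Kif4 (1.06). Since arrays 1 to 3 and arrays 4 to 6 hold different livers apart from the repeated one, dye and liver cannot be told apart here. Both orientations are equally frequent in each diet. On the arrays with the knockout in Cy3 the medians lay between 0.66 and 1.24 with CA and between 0.36 and 1.27 with UDCA. The part of dye in the members' values was not tested.

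**Figure D3:**
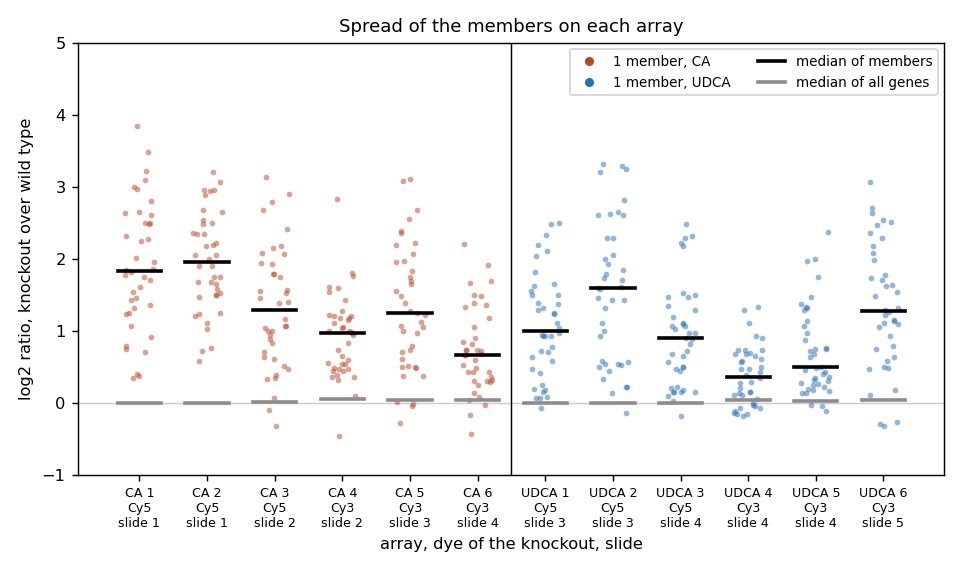
Log2 ratio of knockout over wild type (y axis) of each member (points) on each of the 12 arrays (x axis, with the dye of the knockout and the slide), CA in red on the left and UDCA in blue on the right; black bars are the members' median and grey bars the median of all genes. The members' median is above that of all genes on all 12 arrays, highest on CA array 2 (1.95) and lowest on UDCA array 4 (0.36).

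Of the 40 members, 5 were higher with CA than with UDCA and 0 were lower. That is 12.5%, where 9.52% of all genes were called higher and 4.54% lower. In this fit the share of members is thus near that of all genes, and both shares moved with other settings, given below. The median difference was 0.33 against 0.02 over all genes, and the CA estimate was above the UDCA estimate for 33 members and below it for 7. For 0 of 40 members did every CA array lie above every UDCA array, which 3.89% of all genes did. Below every UDCA array were the CA arrays of 0 members and of 1.78% of all genes. The difference is indirect, since no array held livers of both diets.

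The lowest adjusted p belonged to Incenp, the scaffold of the passenger complex (probe A_51_P264064; mm7, chromosome 19, 9552580 to 9552639). It read 2.01, 2.00, 2.06, 1.43, 1.96 and 1.91 on CA arrays 1 to 6 and 1.03, 1.45, 1.02, 0.73, 0.75 and 1.09 on UDCA arrays 1 to 6. CA array 4 lay below UDCA array 2, and the other CA arrays were above all UDCA arrays. The fit gave 1.89 ± 0.09 with CA and 1.01 ± 0.09 with UDCA, a difference of 0.88 ± 0.13 (adjusted p = 0.000396).

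Cdc25b (probe A_51_P474431; mm7, chromosome 2, 130939226 to 130939282) read 1.45, 1.11, 1.40, 0.99, 1.69 and 0.66 on CA arrays 1 to 6 and 0.19, 0.52, 0.50, -0.14, 0.13 and 0.74 on UDCA arrays 1 to 6. CA array 6 was below UDCA array 6, and no other pair of arrays crossed. It was at 1.22 ± 0.13 with CA and 0.32 ± 0.13 with UDCA (adjusted p = 0.144), a difference of 0.89 ± 0.18 (adjusted p = 0.00394). Its second probe was at 0.86 with CA and 0.52 with UDCA and was called with UDCA too (adjusted p = 0.00239). That probe differed by 0.35 between the diets (adjusted p = 0.130). The third probe, dim in both channels, was at 0.19 and 0.00 and differed by 0.19 (adjusted p = 0.416).

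Kif23, the kinesin of centralspindlin (probe A_52_P27602; mm7, chromosome 9, 61946494 to 61947614), read 1.77, 1.68, 0.99, 0.94, 0.73 and 0.43 on CA arrays 1 to 6 and 0.07, 0.54, 0.47, 0.10, 0.13 and 0.58 on UDCA arrays 1 to 6. Again CA array 6 alone reached into the UDCA values. It was at 1.09 ± 0.13 with CA and 0.32 ± 0.13 with UDCA (adjusted p = 0.154). The difference was 0.77 ± 0.18 (adjusted p = 0.0101). Its second probe was at 0.46 with UDCA and was called higher there (adjusted p = 0.0114). That probe differed by 0.54 between the diets (adjusted p = 0.0317). With UDCA the wild-type channel of Kif23 was well above background on 0 of 6 arrays.

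The 2 other members called were Kif4, with a difference of 0.67 ± 0.18 (adjusted p = 0.0223), and Mki67, with 0.86 ± 0.24 (adjusted p = 0.0265). The second Mki67 probe differed by 0.95 (adjusted p = 0.0273) and the second Kif4 probe by 0.53 (adjusted p = 0.201). Birc5, Kif20a and Nek2 are examples of those not called, and their intervals hold 0. Birc5 differed by 0.24 (95% interval -0.28 to 0.76), Kif20a by -0.12 (-0.65 to 0.42) and Nek2 by -0.35 (-0.85 to 0.15).

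Slide and diet overlapped only on slides 3 and 4, where the scan session was the same as the slide. On slide 3, with CA array 5 and UDCA arrays 1 and 2, the median member difference was -0.08, and 17 of 40 members were higher with CA. There the CA array had the knockout in Cy3 and both UDCA arrays in Cy5. On slide 4, with CA array 6 and UDCA arrays 3 to 5, it was 0.07, and 27 of 39 were higher with CA. Incenp differed by 0.72 and 1.08 on slides 3 and 4, Cdc25b by 1.34 and 0.50, Kif23 by 0.42 and 0.20, Mki67 by 0.26 and 0.49, and Kif4 by -0.55 and 0.27. With slide as a fixed block 2 members were called, Incenp and Cdc25b (4.12% of all genes were higher), and with arrays centred on their median 0 (1.76%). Without CA arrays 3 and 4, which lie on slide 2, 9 of 39 members were called (9.42% of all genes). Leaving out 1 array at a time gave between 3 (without UDCA array 1 or 3) and 12 (without UDCA array 6), with 10 without CA array 3 and 9 without CA array 6. Of all genes, 7.52%, 7.99%, 11.3%, 9.52% and 9.79% were called higher in these fits, in that order. Of 25 alternatives, Mki67 kept its call in 11 and Kif4 in 18.

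**Figure D4:**
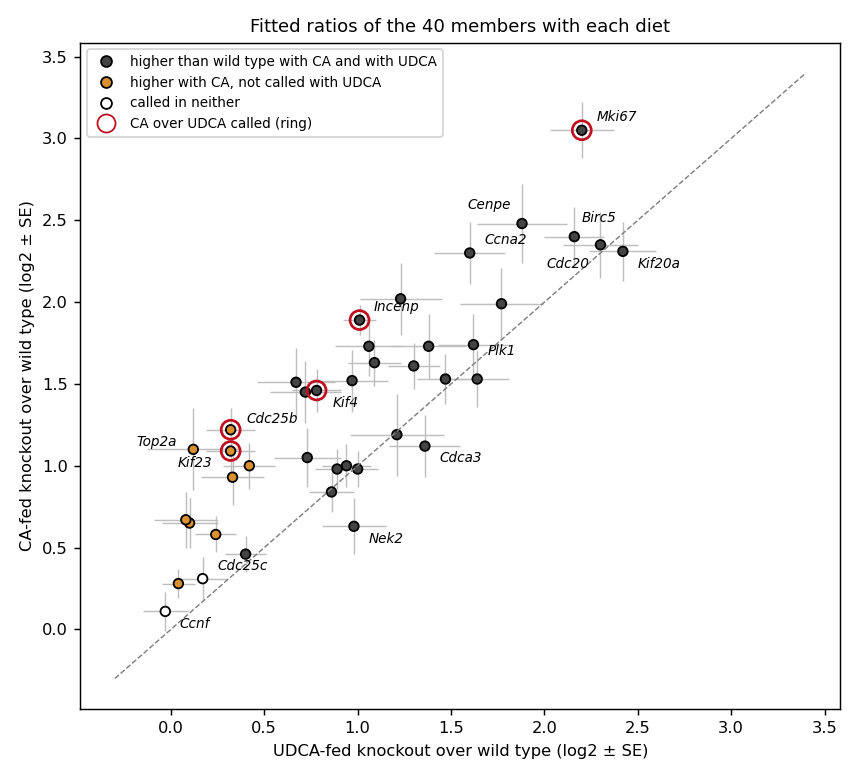
Fitted log2 ratio of knockout over wild type with CA (y axis) against that with UDCA (x axis) for the 40 members, with standard errors; dark points were called in both diets, orange ones with CA and not with UDCA, and white ones in neither, and a red ring marks a called difference between diets. Of the points, 33 lie above the dashed line of equal ratios and 7 below it, and the 5 ringed genes are Incenp, Cdc25b, Kif23, Kif4 and Mki67.

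The windows around the transcription starts of the members were read from RefSeq (build GRCm38.p6), since most of the members were higher in knockout liver together. The table holds 300 bases a start, 250 before it and 50 from it on, and 33 of the 40 members matched, with 34 windows. The cell cycle genes homology region (CHR) was searched as TTTGAA or TTCGAA, and the CCAAT box as CCAAT, both on either strand. The CHR is known as the element that the Lin54 subunit of the MuvB complex binds, and the CCAAT box as the site of NF-Y. TTTGAA or TTCGAA occurred in 26 of 33 members (78.8%) and in 21.7% of all genes with a window. CCAAT occurred in 27 of 33 members (81.8%), against 41.1% of all genes, and both in 24 members (72.7%), against 8.61%. Of the 27 member windows with a CHR match, 25 had one starting within 50 bases of the transcription start. The same was not counted over all genes, so whether the members differ in this is not known. A match of these letters is a description and shows no binding.

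The CHR letters were found in 17 of the 23 matched members that rose with both diets, in 8 of the 9 that rose with CA and were not called with UDCA, and in Ccnf, which was called in neither. Shown are windows of 220 bases (200 before the start and 20 from it on) for those members named above with values on every array that the table holds. CHR and CCAAT matches on either strand are in capitals, each sequence is read 5′ to 3′ along the gene, and positions count from 1 at the start, with -1 the base before it. In GRCm38.p6 they lie at chr7:135716360-135716579 for Mki67 (minus strand), chr7:122159235-122159454 for Plk1 (plus), chr11:117849037-117849256 for Birc5 (plus), chr3:135212363-135212582 for Cenpe (plus), chr4:118437324-118437543 for Cdc20 (minus), chr2:131186748-131186967 for Cdc25b (plus), chr9:61946780-61946999 for Kif23 (minus) and chr17:24251390-24251609 for Ccnf (minus).
Mki67: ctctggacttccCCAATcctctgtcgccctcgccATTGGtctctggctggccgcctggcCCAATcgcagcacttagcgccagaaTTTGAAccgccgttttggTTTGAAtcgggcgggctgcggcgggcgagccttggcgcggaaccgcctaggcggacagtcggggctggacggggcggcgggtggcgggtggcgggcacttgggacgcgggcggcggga
Plk1: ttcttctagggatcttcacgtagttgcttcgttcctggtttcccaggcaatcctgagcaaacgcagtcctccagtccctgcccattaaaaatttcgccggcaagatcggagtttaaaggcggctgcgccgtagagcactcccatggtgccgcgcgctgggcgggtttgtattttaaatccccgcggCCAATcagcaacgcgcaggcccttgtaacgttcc
Birc5: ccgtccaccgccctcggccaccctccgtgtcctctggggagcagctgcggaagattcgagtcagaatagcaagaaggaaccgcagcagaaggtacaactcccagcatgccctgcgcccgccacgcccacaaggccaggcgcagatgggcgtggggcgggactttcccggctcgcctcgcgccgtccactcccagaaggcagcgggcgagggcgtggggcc
Cenpe: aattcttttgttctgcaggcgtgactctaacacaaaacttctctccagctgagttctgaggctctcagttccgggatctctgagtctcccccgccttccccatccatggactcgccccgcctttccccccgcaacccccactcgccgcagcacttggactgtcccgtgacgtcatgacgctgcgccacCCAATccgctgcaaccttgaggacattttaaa
Cdc20: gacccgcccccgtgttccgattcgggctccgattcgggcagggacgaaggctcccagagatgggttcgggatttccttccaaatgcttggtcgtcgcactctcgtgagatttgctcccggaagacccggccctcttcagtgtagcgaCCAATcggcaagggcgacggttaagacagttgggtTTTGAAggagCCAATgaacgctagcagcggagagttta
Cdc25b: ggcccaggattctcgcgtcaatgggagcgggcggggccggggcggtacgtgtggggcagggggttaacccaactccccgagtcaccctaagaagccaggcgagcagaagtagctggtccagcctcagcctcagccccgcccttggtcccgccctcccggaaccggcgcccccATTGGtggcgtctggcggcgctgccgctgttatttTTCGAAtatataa
Kif23: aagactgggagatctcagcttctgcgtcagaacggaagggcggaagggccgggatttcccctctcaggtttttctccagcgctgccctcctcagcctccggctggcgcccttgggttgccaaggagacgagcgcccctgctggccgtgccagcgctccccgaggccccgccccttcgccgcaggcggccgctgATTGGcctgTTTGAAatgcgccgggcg
Ccnf: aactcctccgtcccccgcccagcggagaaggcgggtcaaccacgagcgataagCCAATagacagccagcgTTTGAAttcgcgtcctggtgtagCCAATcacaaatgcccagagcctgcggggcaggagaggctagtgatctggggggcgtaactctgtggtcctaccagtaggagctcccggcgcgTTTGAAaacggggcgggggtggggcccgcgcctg

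Mki67 holds 2 CHR matches, the nearer beginning at position -98, and 3 CCAAT boxes. In Cdc20, Kif23 and Cdc25b a single CHR match lies at the start, beginning at positions -18, 3 and 8. The window of Plk1 has 1 CCAAT box and no CHR match, and the match in its longer window begins at position 31. Birc5, at 2.40 with CA, has neither set of letters, and Cenpe has 1 CCAAT box alone. Ccnf, which was not called, holds 2 of each.

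Other genes of the cell cycle were counted in lists chosen by function. Of 56 other mitosis genes, 43 rose and 4 fell with CA and 25 rose and 1 fell with UDCA, with a median of 0.66 and 0.43. Stmn1, which takes microtubules apart until it is phosphorylated in mitosis, led at 2.96 and 2.24. Sgo1, the guardian of centromeric cohesin, was at 1.82 and 1.23, and the kinase Pbk at 1.67 and 1.20. Those that fell with CA were Cdca2 (-0.97), Mis12 (-0.68), Zwint (-0.56) and Wee1 (-0.51), the last being the kinase that inhibits Cdk1.

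Condensin and cohesin genes rose in 10 of 15 cases with CA and in 4 with UDCA, led by the condensin subunits Ncapg (1.81 and 1.25) and Smc4 (1.41 and 0.62), and 1 fell in each diet, the cohesin subunit Stag2 (-0.37 and -0.61). Of 15 genes of the anaphase-promoting complex, 9 rose with CA and 3 with UDCA, led by Anapc4 (1.13 and 0.77), with Cdc23 at 0.86 and 0.34 and Anapc2 at 0.53 and 0.41. Of 15 genes of the passage into S phase, 10 rose with CA and 4 with UDCA. The D-type cyclins Ccnd2 and Ccnd1 and their kinase Cdk6 were at 1.84, 1.10 and 1.98 with CA. Among 8 Cdk inhibitor genes 6 rose with CA and 4 with UDCA, with Cdkn1a, which encodes p21, at 1.84 and 2.23 and Cdkn2b at 2.03 and 0.67.

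Genes of the DREAM and MuvB complexes, which repress cell cycle genes in resting cells and, in the form that holds Mybl2, activate mitotic ones, went both ways, with 5 of 12 higher and 3 lower with CA and 2 higher and 3 lower with UDCA. Rbl1 rose (1.23 and 0.88), while Rbl2, the pocket protein of resting cells, fell (-0.88 and -0.52), as did Tfdp2 (-1.03 and -0.72).

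Of the DNA replication genes, with CA 25 of 29 rose and 2 fell and with UDCA 14 rose and 1 fell. CA was above UDCA for 14 of 29 (48.3%) beside 5 of 40 members (12.5%), and these shares were not tested against each other. With slide as a fixed block 1 of the 29 differed between the diets, and with arrays centred on their median 1. Uhrf1, which brings the maintenance DNA methyltransferase to new DNA, differed by 1.93, Mcm7, of the replicative helicase, by 1.07, and Pcna, the sliding clamp, by 0.91. Mcm4 was at 2.25 with CA and 1.48 with UDCA, Mcm3 at 2.12 and 1.32, and Mcm10 was lower in both (-2.84 and -2.87). The median difference between the diets was 0.59 in this list and 0.33 in the members.

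**Figure D5:**
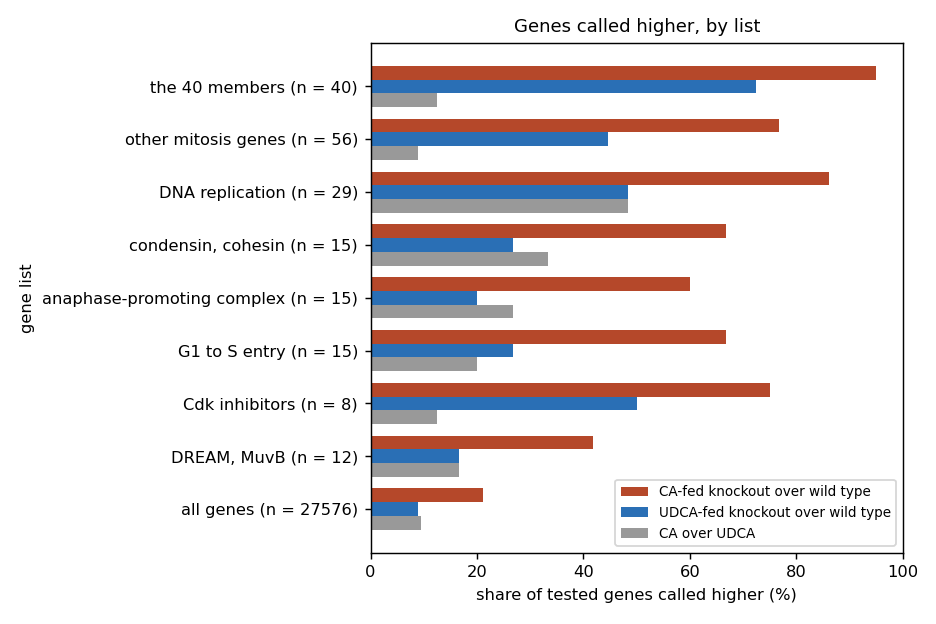
Share of tested genes called higher (x axis, %) in each cell cycle list and over all genes (y axis, with the number tested; cell type markers are not drawn) for CA-fed knockout over wild type (red), UDCA-fed knockout over wild type (blue) and CA over UDCA (grey). Among these lists the members have the longest red and blue bars (95% and 72.5%), and the longest grey bar is that of the DNA replication genes (48.3%).

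Markers of several cell types moved with the members. Of 9 cholangiocyte markers 9 rose with CA and 7 with UDCA, and 6 differed between the diets. Their summed signal (arbitrary units) was 29217 to 163651 in CA-fed knockout and 6904 to 17516 in wild type, and 17165 to 37057 in UDCA-fed knockout and 6988 to 8359 in wild type. Its brightest gene, Spp1, was at 3.19 and 2.00. Of 9 stellate cell and fibroblast markers 9 rose with CA and 7 with UDCA, with summed signals of 65752 to 82501 against 10013 to 29940 and of 41234 to 70091 against 16225 to 20925, and Dcn, the brightest, was at 0.87 and 0.97. Of 7 macrophage and monocyte markers 6 rose with CA and 5 with UDCA, with summed signals of 48097 to 189629 against 26583 to 117025 and of 21296 to 67307 against 14153 to 19719. Lyz2, the brightest of these, was at 0.60 (adjusted p = 0.0847) and 1.19. Every marker in these 3 lists was well above background in knockout liver on at least 1 array of each diet. Saturated on at least 1 CA array were 3 cholangiocyte, 6 stellate cell and fibroblast and 3 macrophage and monocyte markers. On UDCA arrays these numbers were 1, 2 and 1.

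Hepatocyte markers were at 0 higher and 2 of 9 lower with CA and 0 higher and 1 lower with UDCA, with Alb at -0.35 and 0.02 and not called. Their summed signal was 134839 to 548364 in CA-fed knockout and 153586 to 811595 in wild type, and 114296 to 653005 in UDCA-fed knockout and 133151 to 924239 in wild type, with 8 of 9 markers saturated on at least 1 array of each diet. The median ratio of the list was 0.60 to 1.88 on the 6 arrays with the knockout in Cy5 and -2.67 to -0.57 on the 6 with it in Cy3, a swing of the same sign as the dye term of 39 of 40 members, so that the missing calls say little about these markers. Its part in the members' values was not tested. Of 7 T and NK cell markers 4 rose and 1 fell with CA and 0 were called with UDCA. They summed to 1416 to 2126 against 1035 to 1657 and 1244 to 1702 against 1166 to 1506. Lck, the brightest, was at 1.06 and 0.23, and Cd4 was not well above background in knockout liver on any UDCA array. Of 5 B and plasma cell markers 2 rose with CA and 0 with UDCA. They summed to 1895 to 2130 against 799 to 1435 and 1180 to 1488 against 1022 to 1261. Jchain was at 1.36 and 0.06, and Cd79a was not well above background in knockout liver on any array. Of 6 neutrophil markers 2 rose with CA and 1 with UDCA. They summed to 1150 to 2774 against 624 to 1368 and 1238 to 3075 against 855 to 1181. S100a9 was at 1.53 and 1.16, and Elane and Ngp were not well above background in knockout liver on any array.

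Erythroid markers were lower in 2 of 7 cases with CA and 3 with UDCA and higher in 0. They summed to 2143 to 3388 in CA-fed knockout and 4546 to 6576 in wild type, and to 2889 to 3579 in UDCA-fed knockout and 4742 to 5637 in wild type. Alas2 was at -1.27 and -0.99, and Rhag and Kel were not well above background in knockout liver on any array. Of 5 endothelial markers 1 rose and 1 fell with CA and 1 fell with UDCA, summing to 5660 to 6992 against 5359 to 8118 and 4784 to 6464 against 4919 to 6573, with Stab2 at -0.13 and 0.08. The 5 pancreas markers were lower with CA and uncalled with UDCA, with Amy2 at -2.0 and -0.42. They summed to 1555 to 13756 against 3088 to 111762 and 2717 to 13465 against 3516 to 5911. Of these markers 3 were saturated on at least 1 CA array and 0 on UDCA arrays. The part of these cell types in the values of the mitosis and spindle genes was not tested, and the arrays do not say which cells held the transcripts.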

How the data were processed

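Per the file headers, the authors' spot intensities were read with Agilent Feature Extraction 9.5.3, which also gave a log10 ratio of red over green after its own background subtraction and dye normalization. The deposited series table holds log2 ratios whose normalization and centring are unknown. Set against the scanner files, its columns ran opposite to knockout over wild type for CA and the same way for UDCA (Pearson r of -0.868 to -0.975 and 0.749 to 0.961), with column medians of -0.044 to 0.047, and CA columns were turned for an alternative. Probe coordinates are those of mm7 in the files, and exon or UTR was not looked up.

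From the mean spot and median background intensities, ratios were computed with limma 3.58.1 in R 4.3.3: normexp (offset 50), loess within arrays with control spots at weight 0, flagged outlier spots missing (0.303% of values), and spots of a probe averaged. One model across all 40899 tested probes, with a term for dye, gave each diet against wild type and the difference between diets. Tests were moderated (eBayes, 9 residual degrees of freedom) and adjusted by Benjamini-Hochberg over all probes, and a gene is its brightest tested probe. The fit was tested on simulated data. Members and lists were chosen with earlier results of these data known. Values on every array are given for the member with the largest mean ratio in each role, members called in no comparison and the 3 with the lowest adjusted p between diets; Top2a's CA arrays were added after its values were seen. From other lists, up to 4 called genes a comparison and each cell type's brightest marker were named. Of the listed genes, Kifc1, Ncaph2, Ly6g, Hbb-b1, Prss1 and Mcm6 gave no tested probe. Alternatives were background correction, normalization, filters, dye and slide terms, probe choice, the scanner's log ratio, the series table and leaving out arrays.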

Additional observations from a re-analysis of the deposited data

Results flagged for a closer look

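In 3 members a single array lay far from the other 5 of its diet, of 82 groups of arrays examined, and chance gives such a gap in about 1 of 20 groups. Incenp was at 1.43 on CA array 4, where the other CA arrays were at 1.91 to 2.06. Cdc25c was at 0.50 on UDCA array 6, where the others were at -0.05 to 0.15. Top2a was at -0.18 on UDCA array 3, where the others were at 0.11 to 0.26.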

How the results depend on the processing

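The counts of members higher with CA and with UDCA stayed within 1.5 times those reported under all 25 alternatives, and members lower stayed at 0. The count higher with CA than with UDCA, 5 as reported, depended on the processing: it was 0 with arrays centred on their median, 2 with slide as a fixed block, 3 without the dye term, 3 with the scanner's log ratio, and 9 without CA arrays 3 and 4 (chosen after seeing the data). In these fits 1.76%, 4.12%, 7.62%, 7.57% and 9.42% of all genes were higher, in that order. Leaving out 1 array at a time gave 3 to 12, namely 10 without CA array 3 (9.52% of all genes), 9 without CA array 6 (9.79%), 3 without UDCA array 1 (7.52%) or 3 (7.99%), and 12 without UDCA array 6 (11.3%). The cause was not tested. Incenp held its call in 24 of 25 alternatives, Cdc25b in 24, Kif23 in 23, Kif4 in 18 and Mki67 in 11, where the adjusted p of Mki67 in the limma fit reached 0.548. With median centring the median of all genes was -0.27 with CA and -0.19 in the difference (0.00 and 0.02 as reported). It also moved the split of calls with UDCA to 5.0% higher and 0.341% lower.

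Values that changed sign were not called as reported, nor under the alternatives that turned the sign. Ccnf with CA was -0.02 centred on the median, -0.14 with the scanner's ratio and -0.05 in the series table. With UDCA it was 0.13, 0.69 and 0.04 in these and 0.01 without background correction, and -0.06 to 0.01 leaving out 1 array. Ttk with UDCA was -0.02 without background correction, -0.01 in the series table and 0.00 to 0.09 leaving out 1 array. Espl1 with UDCA was -0.07 centred and -0.03 as the mean of its probes, and Kif11 0.00 to 0.16 leaving out 1 array. Between diets Birc5 was -0.06 with the scanner's ratio, and Kif20a 0.12 with slide as a fixed block and -0.29 to 0.10 leaving out 1 array.

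Array numbers are shared by the diets, but same-numbered arrays did not deviate together (residual correlations of -0.489 to 0.0973), so they are not paired, and with a replicate block 38, 28 and 4 members were called with CA, with UDCA and between diets. Dim wild-type signal limits the ratios of Ttk, Cdc25c, Bub1, Aurkb and Kif2c, and 6 arrays from 5 livers a diet limit the precision.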
